A study of Mus musculus with 6 samples.

Results

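The GIMAP genes (GTPases of the immunity-associated protein family) were examined in mouse CD8+ T cells cultured with or without aminoxyacetic acid (AOA), an inhibitor of enzymes that use pyridoxal phosphate, the active form of vitamin B6. Members were the rows of the count matrix whose gene symbol was Gimap1, Gimap3, Gimap4, Gimap5, Gimap6, Gimap7, Gimap8 or Gimap9. All 8 were among the 11922 genes of the matrix, and all 8 passed the filter on low counts, which left 11759 genes for testing. Splenic CD8+ T cells of C57BL6/J mice were activated for 72 hours with anti-CD3/anti-CD28 beads and 100 units/ml IL-2, then expanded in IL-2 alone for 4 more days. Throughout these 7 days the medium of the 3 vehicle libraries contained water and that of the 3 AOA libraries contained 0.25 mM AOA. The same 3 mouse donors gave both groups, no genetic change was listed, and age and sex are not given for each sample. Replicates were therefore separate animals, each contributing 1 library per group.

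GIMAP proteins are small GTP-binding proteins found mainly in lymphocytes, where they are best known for keeping resting T cells alive. They share a GTP-binding domain that begins with a phosphate-binding loop (P-loop), and several are anchored in the membranes of lysosomes, mitochondria or other organelles. In mice the genes form one tight cluster, and loss of single members, Gimap5 in particular, causes a shortage of T cells.

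The members lay side by side on chromosome 6 (GRCm38, the same build as the mm10 of the submitters' processing notes), from 48647186 to 48770851, a stretch of 123.7 kb with no other counted gene between them. Their order was Gimap8 (chr6:48647186-48660875), Gimap9 (chr6:48676121-48679116), Gimap4 (chr6:48684578-48692062), Gimap6 (chr6:48701583-48708244), Gimap7 (chr6:48718621-48724636), Gimap1 (chr6:48739047-48743795), Gimap5 (chr6:48746197-48754200) and Gimap3 (chr6:48764464-48770851). Gimap6 and Gimap3 are transcribed from the minus strand and the other members from the plus strand.

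The P-loop is shown because it is the GTP-binding feature that all members share, although many unrelated GTP- and ATP-binding proteins carry such a loop too. It was searched in the GENCODE vM21 coding sequences as in-frame codons for glycine, any 4 residues, glycine, lysine and serine or threonine, and all 8 members held it, each match within 1 coding exon. The capitals mark the 24 bases of the loop, 5′ to 3′ on the coding strand, between 6 flanking bases on either side.
Gimap1 (chr6:48742546-48742581, plus strand): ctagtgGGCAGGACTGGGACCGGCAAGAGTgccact
Gimap3 (chr6:48765881-48765916, minus strand): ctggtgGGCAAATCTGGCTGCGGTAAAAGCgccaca
Gimap4 (chr6:48690415-48690450, plus strand): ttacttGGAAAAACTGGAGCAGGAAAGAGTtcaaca
Gimap5 (chr6:48752588-48752623, plus strand): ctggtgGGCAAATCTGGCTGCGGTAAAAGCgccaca
Gimap6 (chr6:48702744-48702779, minus strand): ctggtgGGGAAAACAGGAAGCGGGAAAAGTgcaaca
Gimap7 (chr6:48723518-48723553, plus strand): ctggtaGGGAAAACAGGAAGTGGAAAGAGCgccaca
Gimap8, the first of 3 matches (chr6:48650250-48650285, plus strand): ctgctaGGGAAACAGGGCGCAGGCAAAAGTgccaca
Gimap9 (chr6:48677517-48677552, plus strand): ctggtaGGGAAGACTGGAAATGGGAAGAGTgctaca
Over these first matches 11 of the 24 loop positions carried the same base in every member, some of them required by the search itself, and 7 distinct loops were seen. Gimap3 and Gimap5 had the same 36 bases. Gimap8, the one member with 3 GTP-binding domains, held 2 further matches, at chr6:48656113-48656148 and chr6:48658740-48658775, and its coding sequence of 2067 bases compares with 876 to 987 bases for the other members.

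The likeness of Gimap3 and Gimap5 went beyond the loop. Their aligned coding sequences were identical at 811 of 898 bases (90.3%), whereas the other 20 pairs among the members with a single loop were identical at 55.9% to 68.0% of bases. The longest coding stretch that both hold is shown because a single read within it matches both genes. It lies at chr6:48765681-48765820 (minus strand) in Gimap3 and chr6:48752684-48752823 (plus strand) in Gimap5.
Gimap3 and Gimap5, 140 shared bases: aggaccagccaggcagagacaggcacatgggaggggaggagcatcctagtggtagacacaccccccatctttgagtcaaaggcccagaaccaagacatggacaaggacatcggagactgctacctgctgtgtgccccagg
For reads of 75 bases, the length the study sequenced from each end, 3.32% of Gimap3 start positions and 1.97% of Gimap5 start positions were shared with the other gene. No other member shared a 75-base stretch with a member. Only single reads were compared, and the other read of a pair may lie outside a shared stretch. Counting any gene, the shares were 4.30% for Gimap1 (with Gm10310 and Gm28053), 3.86% for Gimap5 (with Gimap3 and Gm28053) and 0.31% for Gimap7 (with Gm28053). The authors counted uniquely mapped reads and so may have left out reads from stretches held at separate places, such as those of Gimap3 and Gimap5. A read-through gene on the same strand, Gm28053, overlaps exons of Gimap7, Gimap1 and Gimap5 over 81, 198 and 153 bases, and the antisense gene Gimap1os overlaps Gimap1 exons over 1107 bases. The sources do not say whether counting used strand, so reads of Gimap1 and Gimap1os may not have been separated. How reads in the exons that Gm28053 overlaps were assigned is not given either. The values of Gimap1, Gimap5 and Gimap7 carry this uncertainty, and those of Gimap3 and Gimap5 that of their shared stretches.

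Library totals ran from 12881962 to 18934869 counts with vehicle and from 18696114 to 21997078 with AOA. The first principal component of the 6 libraries separated the treatments (80.1% of the variance). On the second (10.8%) vehicle replicate 2 stood apart from the other libraries. That library had the lowest level of all 8 GIMAP members among the vehicle libraries, and the median change of the members is given with and without it. CD8 T cell markers were present throughout, with summed levels of 2908 to 3737 CPM (read counts scaled by library size) with vehicle and 3994 to 4644 CPM with AOA. Markers of other cell types moved with treatment. The 4 CD4 T cell markers summed to 158 to 210.5 CPM with vehicle and 33.0 to 54.3 CPM with AOA, 4 of 6 myeloid markers to 60.2 to 119.9 and 5.42 to 10.3 CPM, 2 of 4 NK cell markers to 20.1 to 113.7 and 3.53 to 11.6 CPM, 2 of 5 endothelial markers to 107.9 to 139.7 and 39.3 to 54.9 CPM, and 4 of 5 B cell markers to 12.6 to 16.6 and 22.6 to 30.7 CPM. The endothelial sum was nearly all Pecam1, which T cells also express (means of 117.5 and 47.4 CPM), with Kdr at 1.30 and 0.14 CPM. The NK sum was nearly all Klrb1c (57.7 and 7.14 CPM), with Ncr1 at 0.78 and 0.32 CPM and at 0 in vehicle replicates 1 and 3. Of the myeloid markers, Itgam had means of 45.4 and 1.21 CPM, Cd68 14.4 and 3.83 CPM and Lyz2 0.11 and 0.51 CPM. Fcer1g measured 2.22, 53.4 and 5.86 CPM in vehicle replicates 1, 2 and 3, with a mean of 1.66 CPM with AOA. Among the CD4 T cell markers, Foxp3 was not called and had means of 13.3 and 17.1 CPM. The listed markers left out of these sums, and all 5 erythroid markers, had no counts to analyse here, and none of those summed was at 0 in every library. The myeloid and NK sums were highest in vehicle replicate 2, and the part of these cell types in the GIMAP results was not tested. In bulk RNA, fewer cells of a type and less RNA per cell cannot be told apart.

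AOA-treated cells held less of the GIMAP transcripts. Of the 8 members, 7 were called lower with AOA, 0 were called higher and 1, Gimap9, was not called (edgeR quasi-likelihood test, adjusted p under 0.05 over all tested genes). The background was high, since 53.0% of all tested genes were called, 26.2% higher and 26.8% lower. The median log2 fold change of the members was -1.38, against -0.02 for all tested genes, -1.04 for all genes called lower and a lower quartile of -0.59 for all tested genes. Every AOA library lay below every vehicle library for 7 of 8 members, a separation that 31.1% of all tested genes also showed. The p-values measure the spread between animals, and an exact permutation test of 3 against 3 libraries could not go below 0.1 for any single value.

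**Figure D1:**
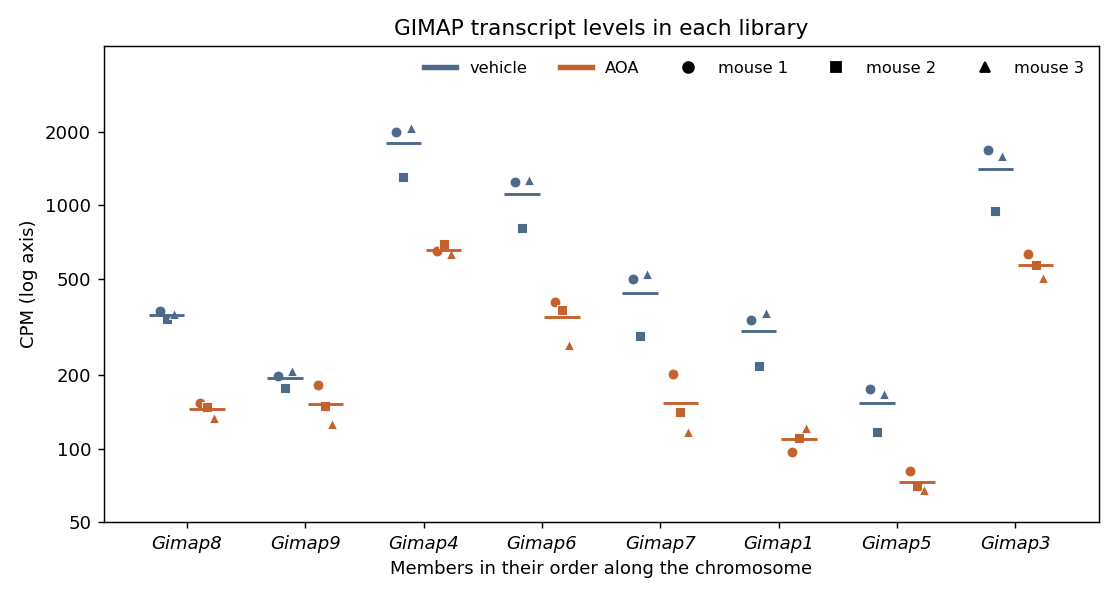
Transcript level of each GIMAP member (CPM, log axis) in each library, with members in chromosome order, colours for vehicle and AOA and marker shapes for the 3 mice. The AOA points sit below all vehicle points for 7 members, and for Gimap9 the AOA library of mouse 1 (183 CPM) lies above the vehicle library of mouse 2 (177 CPM).

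Summed over the family, the transcripts made up 6511, 4198 and 6546 CPM in the vehicle libraries of mice 1, 2 and 3, and 2401, 2257 and 1964 CPM in the AOA libraries. Even the lowest vehicle library was well above the highest AOA library. The mean fell from 5752 ± 1346 CPM to 2207 ± 223 CPM (SD, n = 3 each), so that 38.4% of the vehicle level remained.

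Gimap1, which mature T and B cells need in order to survive, measured 338, 218 and 359 CPM with vehicle and 96.8, 111 and 122 CPM with AOA. The highest AOA value was far below the lowest vehicle value, and the vehicle libraries were the more variable. Gimap1 thus had a log2 fold change of -1.47 (SE 0.20, adjusted p = 3.89e-04), and 36.0% of the mean vehicle level remained.

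Gimap5, the lysosomal member whose loss leaves rodents short of T cells, was the lowest of the family per kilobase. It measured 176, 118 and 169 CPM with vehicle and 81.2, 70.7 and 68.0 CPM with AOA. The groups were separate, and mouse 2 gave the smallest fall. The fitted log2 fold change of Gimap5 was -1.07 (SE 0.17, adjusted p = 9.14e-04), the smallest among the called members.

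Gimap3, the close relative of Gimap5 that also acts in T cell survival, was expressed at a much higher level. Its values were 1682, 946 and 1593 CPM with vehicle and 632, 569.9 and 501 CPM with AOA. The vehicle library of mouse 2 lay between the other vehicle libraries and the AOA libraries, without overlap. The log2 fold change was -1.31 (SE 0.23, adjusted p = 0.00147). Within mice, the change of Gimap3 and that of Gimap5 differed by -0.22 ± 0.20 log2 units (mean ± SD, n = 3), and not in the same direction in every mouse.

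Gimap4, a member known to speed the death of T cells once apoptosis has begun, had the highest level of the family. It measured 2000.1, 1303 and 2073 CPM with vehicle and 649.5, 694 and 628 CPM with AOA. The AOA libraries were close together (mean 657 ± 33.6 CPM) and all were below the lowest vehicle library. The fit gave Gimap4 a log2 fold change of -1.45 (SE 0.21, adjusted p = 4.61e-04).

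Gimap6, which binds the autophagy protein GABARAPL2, had the largest fitted fall of the 8 over all libraries. Its values were 1249, 804 and 1268 CPM with vehicle and 401, 372 and 268 CPM with AOA. No library of one group reached the other, and the lowest AOA value came from mouse 3. The log2 fold change was -1.67 (SE 0.23, 95% interval -2.20 to -1.15, adjusted p = 4.12e-04), and 31.4% of the vehicle level remained. Its place was not fixed, since Gimap1 fell more in mouse 1 (-1.80 against -1.64) and Gimap8 in mouse 2 (-1.20 against -1.11), and without AOA replicate 3 the fit gave Gimap1 -1.55 and Gimap6 -1.51.

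Gimap7, a member that hydrolyses GTP when it pairs with another GIMAP molecule, measured 499, 290.4 and 519.8 CPM with vehicle and 204, 142 and 117 CPM with AOA. The groups were separate but the AOA libraries spread more widely than for most members. Its log2 fold change was -1.50 (SE 0.27, adjusted p = 0.00152).

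Gimap8 stood out for even values among replicates. It measured 368, 341 and 357 CPM with vehicle and 154, 149 and 133 CPM with AOA, so that mouse 2 hardly differed from the other mice. The group means were 355 ± 13.4 and 145 ± 10.6 CPM (SD, n = 3 each). The log2 fold change was -1.29 (SE 0.13, adjusted p = 8.55e-05), the smallest error and the smallest adjusted p of the family.

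Gimap9 was the exception. It measured 198, 177 and 208 CPM with vehicle and 183, 149.6 and 126 CPM with AOA, and the groups overlapped because the AOA library of mouse 1 exceeded the vehicle library of mouse 2. The means were 194 ± 15.9 and 153 ± 28.5 CPM, or 78.6% of the vehicle level. The log2 fold change was -0.35 (SE 0.16, 95% interval -0.71 to 0.02, adjusted p = 0.0984). Without AOA replicate 1 it was -0.49 with an adjusted p of 0.0202, so the lack of a call rested on that library. Without AOA replicate 3 it was -0.22 (adjusted p = 0.341) and without vehicle replicate 3 it was -0.27 (adjusted p = 0.286). Over all alternatives the adjusted p ran from 0.0202 to 0.341.

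**Figure D2:**
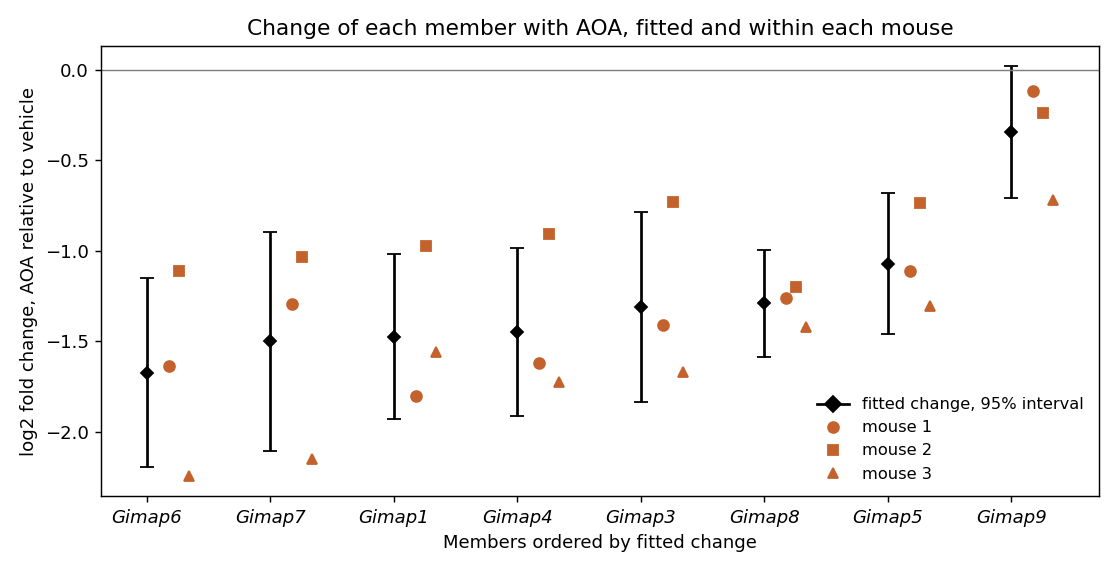
Fitted log2 fold change with AOA of each member (diamond, with its 95% interval) and the change within each of the 3 mice (coloured points), members ordered by the fitted change. Every point lies below 0, Gimap6 is lowest at -1.67 and the interval of Gimap9 alone reaches past 0.

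The libraries of each mouse could be compared directly. All 8 members were lower with AOA in all 3 mice. The median change over the members was -1.35 log2 units in mouse 1, -0.94 in mouse 2 and -1.61 in mouse 3. Mouse 2, whose vehicle library stood apart, gave the smallest fall for 7 members. The exception was Gimap9, with -0.12, -0.24 and -0.72 in mice 1, 2 and 3. Without vehicle replicate 2 the median fitted change of the members was -1.55.

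Gimap9 fell less than each of the other 7 members in all 3 mice. Gimap9 was singled out here after its values were seen, and with 3 mice a two-sided sign-flip permutation test could not go below 0.25. The mean difference within mice was smallest against Gimap5, at -0.69 ± 0.27 log2 units, and largest against Gimap6, at -1.30 ± 0.38 (SD, n = 3). Of the 28 pairs of members, 16 kept one order of change in all 3 mice, Gimap6 falling more than Gimap3 among them (difference 0.39 ± 0.18).

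**Figure D3:**
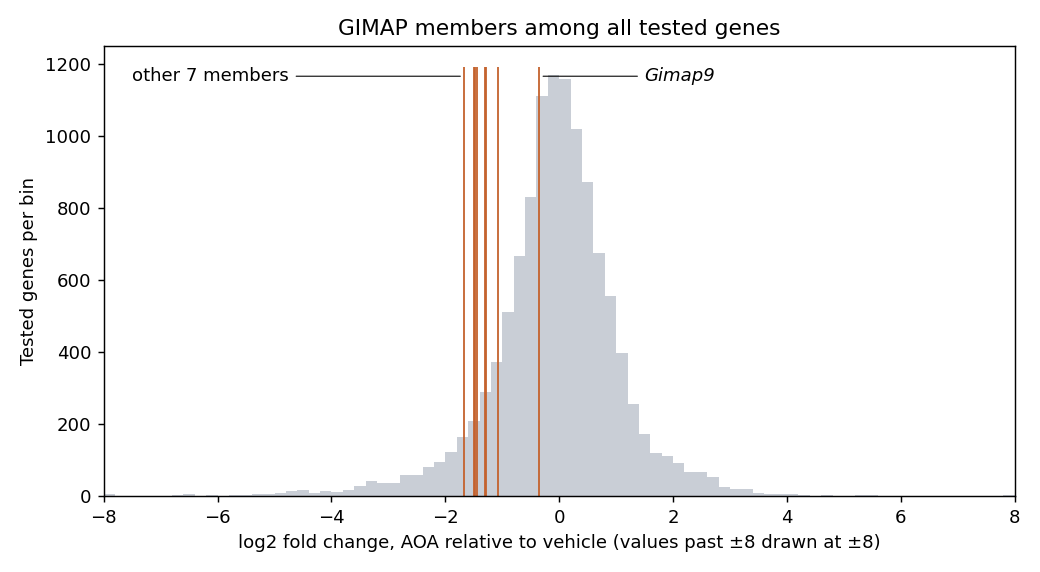
Histogram of the log2 fold changes of all 11759 tested genes (genes per bin), with the 8 GIMAP members marked. All members lie to the left of the all-gene median of -0.02, 7 of them past -1 and Gimap9 at -0.35.

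Levels of different genes were compared per kilobase of the deposited gene length. With vehicle the order was Gimap4 (990.1 ± 235 CPM per kb, mean ± SD, n = 3), Gimap6 (687 ± 163), Gimap3 (656 ± 187), Gimap7 (344 ± 100.0), Gimap1 (203 ± 50.6), Gimap9 (141 ± 11.5), Gimap8 (96.0 ± 3.61) and Gimap5 (79.3 ± 16.3). Even Gimap5 was at the 92.6th percentile of tested genes on this scale, and Gimap4 at the 99.4th. Gimap6 and Gimap3 did not differ beyond their spread, and Gimap6 was the higher in 2 of 3 libraries. The ranges of Gimap4 and Gimap6, Gimap7 and Gimap1, and Gimap1 and Gimap9 also overlapped, although the first of each pair was higher within every library.

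With AOA the levels per kilobase were 363 ± 18.5 for Gimap4, 265 ± 30.5 for Gimap3, 215 ± 43.5 for Gimap6, 122 ± 35.0 for Gimap7, 110.5 ± 20.6 for Gimap9, 73.0 ± 8.37 for Gimap1, 39.2 ± 2.87 for Gimap8 and 37.7 ± 3.59 for Gimap5. Gimap3 stood above Gimap6, and Gimap9 above Gimap1, each in all 3 AOA libraries. Gimap8 and Gimap5 did not differ beyond their spread, and neither did the ranges of Gimap3 and Gimap6 or of Gimap7 and Gimap9 separate.

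The make-up of the family shifted accordingly. The share of Gimap9 in the summed level per kilobase was 3.97, 5.53 and 4.11% with vehicle and 9.84, 8.65 and 8.43% with AOA, with no overlap. Gimap6 went the other way, from 21.4, 21.6 and 21.5% to 18.5, 18.5 and 15.4%, also without overlap. Gimap5 rose slightly in share, from 2.37 to 2.62% up to 2.91 to 3.23%, while the shares of the other 5 members overlapped between the groups. Gimap4 remained the largest component, with mean shares of 31.0 ± 0.39% and 29.8 ± 2.76%.

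**Figure D4:**
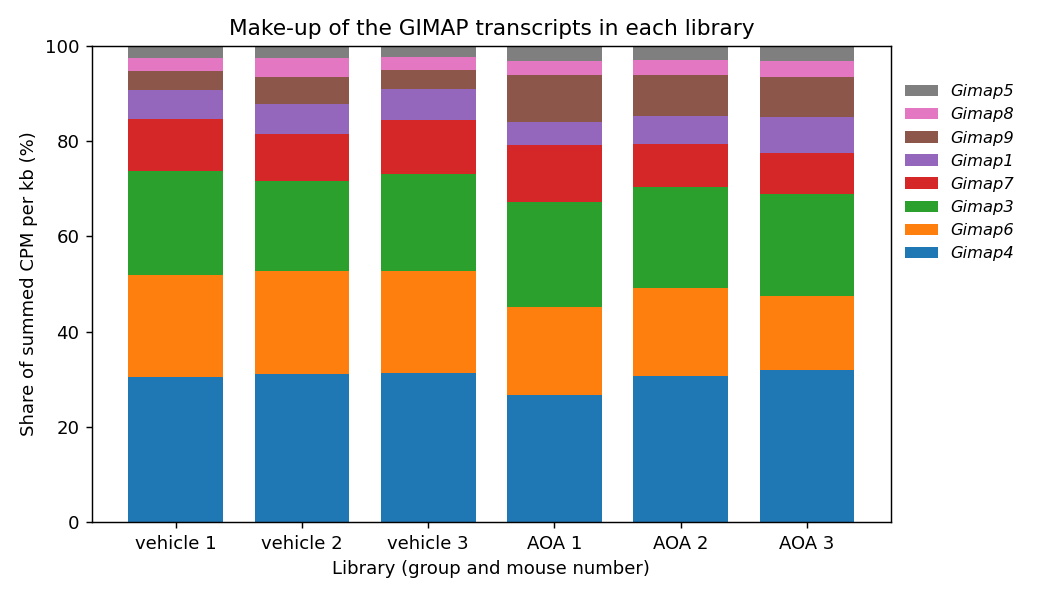
Share of each member in the summed GIMAP level per kilobase (%) in each of the 6 libraries, as stacked bars. The Gimap9 segment is wider in every AOA library (8.43 to 9.84%) than in every vehicle library (3.97 to 5.53%), and the Gimap6 segment is narrower.

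The 250 bases before each start site in the RefSeq promoter table (GRCm38.p6) were searched on both strands for letters bound by factors active in T cells, with 9 windows for the 8 members because Gimap8 has 2 starts. At Gimap8 and Gimap9 these start sites lie downstream of the outermost gene start given above, so their windows reach into the gene span. FOXO letters (GTAAACA) were found at Gimap3, RUNX letters (TGTGGT) at Gimap1, Gimap4 and Gimap7, ETS letters (GGAAGT) at Gimap5 and Gimap6, and a TATA box (TATAAA) at Gimap6. Over all 32851 windows these letters occurred in 3.17%, 14.0%, 19.7% and 12.4%. Letters for GATA factors (AGATAA) and for KLF factors (CCACACCC) and an ISRE-like pattern, present in 9.99%, 3.20% and 2.98% of windows, were found at no member. The windows of the members with the largest and the smallest fitted fall are shown, with matches of either strand in capitals.
Gimap6 (chr6:48708245-48708494, minus strand): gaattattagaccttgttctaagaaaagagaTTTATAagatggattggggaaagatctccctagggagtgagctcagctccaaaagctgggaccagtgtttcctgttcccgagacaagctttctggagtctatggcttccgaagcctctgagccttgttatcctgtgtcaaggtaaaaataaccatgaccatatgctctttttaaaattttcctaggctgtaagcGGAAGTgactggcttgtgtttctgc
Gimap9 (chr6:48675885-48676134, plus strand): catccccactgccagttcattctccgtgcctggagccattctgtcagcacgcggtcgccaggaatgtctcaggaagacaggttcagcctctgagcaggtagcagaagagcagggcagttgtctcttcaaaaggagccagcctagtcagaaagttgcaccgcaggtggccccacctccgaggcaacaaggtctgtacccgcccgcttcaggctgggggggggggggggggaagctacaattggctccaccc
In the Gimap6 window the TATA letters lie on the opposite strand and far from the start, and the ETS letters lie near it. The Gimap9 window held none of the letters searched, and neither did the 2 windows of Gimap8, which was called lower. The Gimap9 window had the highest G and C content of the 9 windows (61.2%, against a median of 47.6% for the family and 52.4% for all windows). It also held 8 CpG dinucleotides where the other members' windows held 1 to 3, and the median of all windows was 6. These matches describe letters only.

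The 5 counted genes on either side of the cluster were compared as its surroundings. All were low, with vehicle means of at most 45.1 CPM, and 5 of the 10 were called lower, 0 higher and 5 not called, with a median log2 fold change of -0.72, where 26.8% of all tested genes were called lower and 26.2% higher. On the Gimap8 side, Gm5111 (-2.73, adjusted p = 0.00289), Repin1 (-0.88, adjusted p = 0.0125) and Zfp775 (-0.94, adjusted p = 0.0107) were called, and Rarres2 (-0.24) and AI854703 (-0.57) were not. Repin1 lost its call without AOA replicate 1 or 3 and Zfp775 without vehicle replicate 1. Next to Gimap3, Tmem176b (-0.17) and Tmem176a (0.25), which overlap each other, were not called. Beyond them Gpnmb (-4.80, adjusted p = 1.37e-05) and Igf2bp3 (-3.01, adjusted p = 3.11e-05) were called lower and Malsu1 (0.06), which overlaps Igf2bp3, was not.

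**Figure D5:**
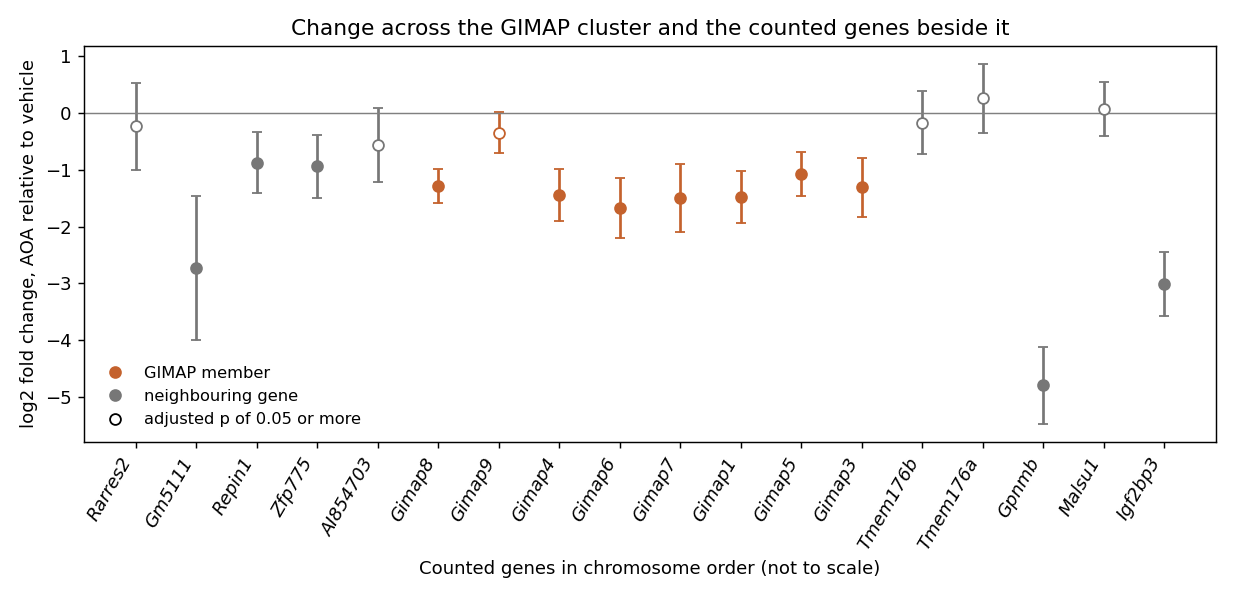
Fitted log2 fold change with AOA of the 8 GIMAP members and of the 5 counted genes on either side, in chromosome order and not to scale; open points were not called. The members run from -1.67 to -0.35, and the genes beside them run from -4.80 to 0.25.

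Genes with the profile closest to that of the family were sought among 8754 tested genes with a mean of at least 10 CPM. Likeness was the Euclidean distance between the log2 CPM profile over the 6 libraries, centred on its mean, and the mean centred profile of the members. The closest were Zkscan14 (distance 0.12, log2 fold change -1.18), Cir1 (0.15, -1.30), Gm11110 (0.17, -1.31), Mbtd1 (0.20, -1.19) and Dmac2 (0.20, -1.13). The members themselves, which make up that mean profile, ranged from 0.21 for Gimap3 to 1.14 for Gimap9. Of the other genes, 1869 were closer to that profile than Gimap9, 302 than Gimap6, 215 than Gimap1 and 206 than Gimap7. For Gimap8, Gimap4, Gimap5 and Gimap3 these counts were 65, 16, 8 and 5.

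Genes tied to GIMAP proteins in survival and autophagy were called about as often as genes in general. Of 15 such genes 3 were called higher and 4 lower, shares near the background of 26.2% and 26.8%, with a median log2 fold change of -0.23. Without vehicle replicate 2 the counts were 4 higher and 6 lower. Among the BCL2 family, to which several GIMAP proteins bind, the survival genes Bcl2l1 (1.20, adjusted p = 0.00161) and Bcl2 (0.93, adjusted p = 0.00561) rose, whereas the survival gene Mcl1 fell (-0.53, adjusted p = 0.0101). Mcl1 lies outside the rule for named genes and was chosen after its values were seen. The death-promoting gene Bax also rose (0.60, adjusted p = 0.0193), a call lost without vehicle replicate 1, vehicle replicate 3 or AOA replicate 1. The death-promoting gene Bcl2l11 fell (-1.81, adjusted p = 7.51e-04), as did the autophagy genes Gabarap (-0.69, adjusted p = 0.00313) and Map1lc3b (-0.68, adjusted p = 0.00580). Gabarapl2, the autophagy partner of Gimap6, had a log2 fold change of -0.22 (adjusted p = 0.389). Foxo1, a transcription factor of resting T cells, had -0.42 (adjusted p = 0.163). Gabarapl2 and Foxo1 were named for their known roles, outside the rule for named genes, after their values were seen.

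Genes of resting T cells, including receptors and transcription factors of quiescence, were listed beside the family. Of 18 such genes 12 were called lower and 0 higher, where 26.8% of all tested genes were called lower, with a median of -0.69. Without vehicle replicate 3 the count was 8 lower and 1 higher, and without vehicle replicate 2 it was 16 lower. The lowest were Il7r, the receptor for the survival cytokine IL-7 (-4.46, adjusted p = 1.12e-05), Pik3ip1, an inhibitor of PI3K signalling (-2.62, adjusted p = 1.12e-05), and Txnip, an inhibitor of glucose uptake (-2.17, adjusted p = 5.84e-04). A different family of immune GTPases, the interferon-induced group, had 11 of 16 counted members called lower and 0 higher, with a median of -0.72. Mx1 (-2.07, adjusted p = 0.00132), Iigp1 (-1.39, adjusted p = 0.00861) and Gbp9 (-1.05, adjusted p = 0.00348) were the lowest. Iigp1 lost its call without AOA replicate 1 or 2, and 6 of the 16 were called lower without AOA replicate 1, 7 without vehicle replicate 3 and 14 without vehicle replicate 2. The GIMAP members, with 7 of 8 called lower and a median of -1.38, had the lowest median of these 4 lists, a difference that was not tested. Among the short marker lists, medians were lower for CD4 T cell (-2.38), myeloid (-3.63), endothelial (-2.25) and NK cell markers (-3.02, 1 tested gene). They were higher for B cell (-0.16) and CD8 T cell markers (-0.13). In the same libraries the CD8 genes Cd8a (1.03, adjusted p = 0.00128) and Cd8b1 (0.64, adjusted p = 0.0148) rose and Cd4 fell (-3.08, adjusted p = 1.29e-04), and Cd8b1 lost its call without AOA replicate 3. The other CD8 T cell markers, Cd3d (-0.13), Cd3e (-0.27) and Cd3g (-0.31), were not called, and the median of that list was -0.13, so its higher sum with AOA came from Cd8a and Cd8b1.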

How the data were processed

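The authors sequenced stranded mRNA libraries in 75-base paired reads, mapped them with STAR and kept reads that mapped uniquely. The deposited table holds their raw counts per gene and a gene length. The submitters' processing notes also name bcl2fastq, featureCounts, DESeq2 and mm10. The sources used here do not give versions, annotation, strand setting or any gene filter. Analysis was done with edgeR 4.0.16 in R 4.3.3, using filterByExpr (minimum count 10), TMM, the robust quasi-likelihood test over all genes and Benjamini-Hochberg adjustment at 0.05. CPM values use TMM library sizes, log2 CPM adds a prior count of 2, and CPM per kb divides by the deposited length. In a count table of this depth, totals of 12881962 to 21997078 counts per library bound the counting error, which was below the spread between replicates, since replicates of a group differed with a chi-square per gene of 10.2 to 72.3. In all, 4 genes were at 0 in every library.

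Named genes were the 8 members, 5 counted neighbours on either side and the 5 closest profiles. Up to 3 called genes a direction per list with the largest change were named too. Mcl1, Gabarapl2, Foxo1, Foxp3, Lyz2, Ncr1, Cd3d, Cd3e and Cd3g were named outside this rule. The members and lists were chosen with earlier results of these data known. Positions came from the RefSeq table and coding sequences and overlaps from GENCODE vM21. No protein sequences were used here. The main model had no block. The alternatives were other tests (voom of limma 3.58.1 and DESeq2 1.42.0), other scaling (size factors by median of ratios, or library totals), other filters (none, or 10 CPM or more in at least 3 libraries), mouse donor as a replicate block, and each library left out in turn. The labels give each mouse donor to 1 library of either group, which pairs the libraries. Deviations from the group means correlated within mice with r of 0.0868, 0.189 and 0.194 over 11759 genes, which are not independent replicates. The scripts were tested on simulated data.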

Additional observations from a re-analysis of the deposited data

How the results depend on the processing

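Under 13 alternatives the GIMAP count of calls stayed within 7 to 8 members lower and 0 higher, by every tool run. The 7 called members were called under each alternative, with Gimap6 between -1.82 and -1.51 on the log2 scale and Gimap5 between -1.20 and -0.94. The median change of the members lay between -1.55 (without vehicle replicate 2) and -1.28 (without AOA replicate 3). Gimap9 was called only without AOA replicate 1. The replicate block for mouse donor gave 7 members lower, a median of -1.36 and an adjusted p of 0.0958 for Gimap9, and changed no call of a member. With 1 library left out, 2519 to 3499 of all genes were called higher and 2433 to 3297 lower, and the median log2 fold change of all genes stayed within 0.1 of the main value under every scaling. Of the neighbours that were not called, Tmem176b ranged from -0.36 to 0.083 (without vehicle replicate 3) and Malsu1 from -0.13 (without AOA replicate 1) to 0.20, and the cause of these changes of sign was not tested.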
